A study of Arabidopsis thaliana with 8 samples.

Results

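The nuclear photosynthesis genes LHCB4.1, LHCB4.2, PSAE-1 and RCA were followed over 8 arrays through the probe sets of the Arabidopsis thaliana ATH1 array that are annotated to 1 of these genes and to no other. They are 4 of 13286 genes with such a probe set, and each has 1 of the 22810 probe sets in the deposited table. The probe set 251082_at belongs to LHCB4.1 (AT5G01530), 258993_at to LHCB4.2 (AT3G08940), 253738_at to PSAE-1 (AT4G28750) and 245061_at to RCA (AT2G39730). The rule that picks them reads the annotation and no measured value, though the genes were proposed with earlier results of these data known.

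RNA came from whole shoots of Col-1 plants that had 4 rosette leaves. They were raised on agar with 16 h of light per day and collected 6 h into the day. The series compares array platforms, and its samples differ by the set of RNAs added to the plant RNA, called a spike mix. There was 1 array for each of spike mixes 1 to 7 and 1 for a reference spike mix. All 8 shared the kind of plant, tissue and growth conditions named above. The labels do not say whether the arrays used the same plants or separate ones. The labels give no amounts or names for the added RNAs, and name no treatment or mutation of the plants.

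All 4 genes are nuclear, and their products work in the chloroplast. LHCB4.1 and LHCB4.2 encode forms of CP29, a minor antenna protein that binds chlorophyll and links the outer light-harvesting complexes to the core of photosystem II. PSAE-1 encodes a subunit on the stromal face of photosystem I, where ferredoxin takes up electrons. RCA encodes Rubisco activase, which uses ATP to free the active sites of Rubisco, the enzyme that fixes CO2, from inhibitory sugar phosphates. Genes of these kinds are among the most strongly expressed in green leaf tissue during the day.

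All 4 genes gave signals near the top of the scale on every array. The values are linear MAS5 intensities, and all arrays had the same 2% trimmed mean. Per array, between 73.6% and 77.0% of probe sets lay above 12.9, the 25th percentile of the table, which served as a floor before log2 was taken. With 1 array per mix no value is replicated within its mix, and precision is limited by how few arrays there are. An SD given here is taken over the 8 arrays and holds array, labelling and mix effects together. Signals come from whole shoots, where fewer green cells and less RNA per cell cannot be told apart.

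The tissue was checked against marker lists. Here and below, a listed gene counts as measured if its symbol or synonym matched a probe set annotated to 1 gene. An unmatched gene may still have a probe set on the array. Of 9 green leaf markers 4 could be measured, and these are the 4 genes described here, so they are no independent check of the label. Of 10 root markers 3 were measured. PYK10, which shoots of seedlings also express, lay between 838 and 1056, and the root hair expansins EXPA7 and EXPA18 reached at most 29.3 and 35.0. The flower regulator AMS was above the floor on 1 of 8 arrays. The guard cell regulator FAMA, which the tables call FMA, had 34.9 to 72.6, and the senescence marker SAG29 had 51.0 to 90.2. Against the reference array SAG29 had log2 ratios of -0.50 and -0.27 in mixes 2 and 3, EXPA18 had -0.36 and -0.40, EXPA7 -0.17 and -0.15, PYK10 -0.04 and 0.01, and FMA 0.23 and 0.41. These are the mixes where the 4 genes were lowest, and the part of other tissues in that was not tested. SAG29 was lower still in mixes 1 and 6, at -0.59 and -0.82, and EXPA18 in mixes 4 and 5, at -0.45 and -0.71. PYK10 was lower still in mixes 6 and 7, at -0.31 and -0.16, and EXPA7 in mix 6, at -0.26. FMA was higher still in mixes 4, 5 and 6, at 0.85, 0.50 and 0.57. No seed marker was measured.

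The antenna gene LHCB4.1 had the highest signals of its profile in mixes 4, 5 and 6. Its signal was 3899 in mix 1, 3358 in mix 2, 3377 in mix 3, 4221 in mix 4, 4301 in mix 5, 4427 in mix 6 and 3719 in mix 7, against 3911 on the reference array. The mean was 3902 ± 404 (SD, n = 8 arrays), and the highest array was 1.32-fold above the lowest. Mixes 2 and 3 were the lowest arrays and lay close together, with mix 7 next.

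LHCB4.2, which encodes the sister form of CP29, reached 3458 in mix 1, 2893 in mix 2, 2759 in mix 3, 3324 in mix 4, 3409 in mix 5, 3736 in mix 6 and 3311 in mix 7, against 3120.4 on the reference array. The mean was 3251 ± 316 (SD, n = 8 arrays), with a range of 1.35-fold. Mixes 2 and 3 were again lowest and mix 6 highest, but here the reference array was the next lowest. The reference array thus stood low for LHCB4.2 and in the middle for LHCB4.1, where it was the 4th highest of 8.

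PSAE-1 had the widest range of the 4 genes. Its signal was 3658 in mix 1, 2787 in mix 2, 2416 in mix 3, 3854 in mix 4, 3570.1 in mix 5, 3269 in mix 6 and 3442 in mix 7, against 3472 on the reference array. The mean was 3308 ± 479 (SD, n = 8 arrays), and the range was 1.60-fold. Mix 3 was lowest, mix 2 next and mix 6 after it, whereas mix 6 was the highest array for the other 3 genes.

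RCA kept within a narrow band except in mixes 2 and 3. Its signal was 3514 in mix 1, 2821 in mix 2, 2471 in mix 3, 3458 in mix 4, 3431 in mix 5, 3546 in mix 6 and 3268 in mix 7, against 3236 on the reference array. The mean was 3218 ± 381 (SD, n = 8 arrays), with a range of 1.44-fold. Without mixes 2 and 3 the mean was 3409 ± 129 (SD, n = 6 arrays).

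**Figure D1:**
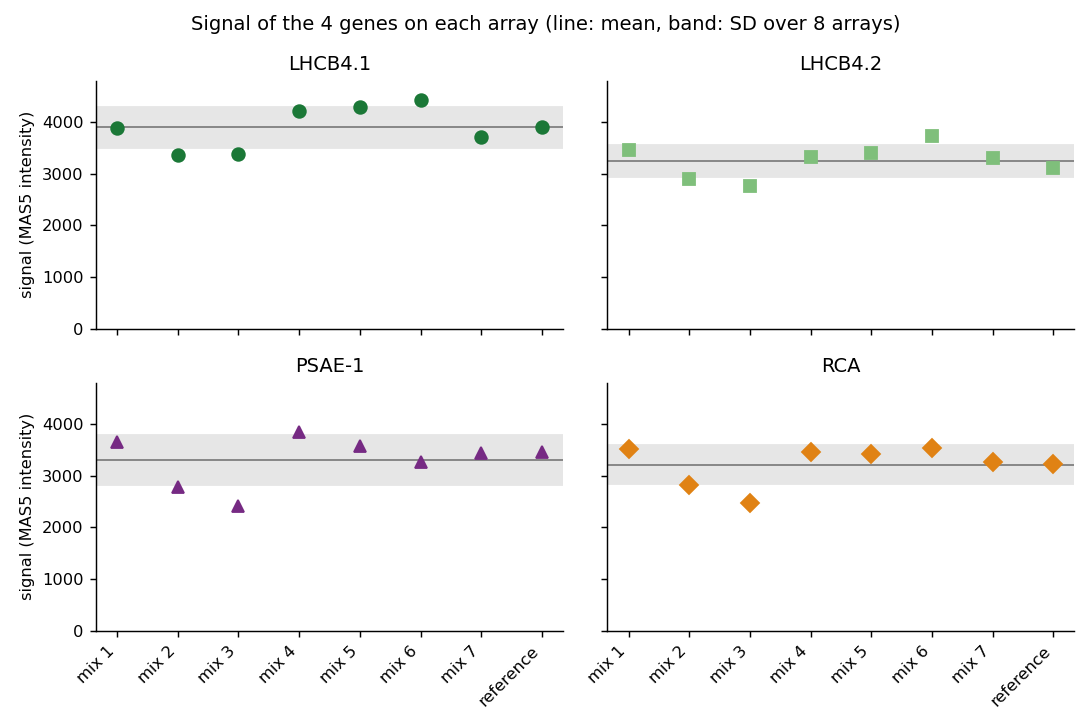
Signal (MAS5 intensity, linear axis from 0) of LHCB4.1, LHCB4.2, PSAE-1 and RCA on the arrays of spike mixes 1 to 7 and of the reference mix, 1 point per array, with the mean as a line and the SD over 8 arrays as a band. Mixes 2 and 3 are the lowest arrays for all 4 genes, down to 2416 for PSAE-1 in mix 3.

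The order of the arrays was alike at its low end and unlike above it. In all 4 genes mixes 2 and 3 held the lowest places. LHCB4.1 was lowest in mix 2, and the other 3 genes were lowest in mix 3. With 1 array per mix, neighbours in any of these orders cannot be set against replicate error.

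On the log2 scale the SD over 8 arrays was 0.15 for LHCB4.1, 0.14 for LHCB4.2, 0.23 for PSAE-1 and 0.18 for RCA. Their median, 0.17, stood beside medians of 0.15 over all 22746 probe sets other than the manufacturer's controls and 0.12 over the 223 other probe sets of the brightest 1%. Of these 223, which had mean signals of at least 1670.0, 40 had an SD as large as that of LHCB4.1 and 57 as large as that of LHCB4.2. Only 15 had one as large as RCA, and 1 as large as PSAE-1, AT5G20290, which was picked out after its value was seen. Without mixes 2 and 3 the SDs were 0.10, 0.09, 0.08 and 0.05 in the order above, and 110 of the 223 then matched or passed PSAE-1 and 195 RCA.

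Places by signal were counted from the brightest downwards among the 22746 probe sets. They order signals and not transcript amounts, since probe sets differ in how strongly they bind. LHCB4.1 was at place 15 in mix 1, 5 in mix 2, 5 in mix 3, 7 in mix 4, 5 in mix 5, 4 in mix 6 and 13 in mix 7, against 6 on the reference array. It therefore kept its place in mixes 2 and 3, where its signal was lowest, and lost places in mixes 1 and 7. LHCB4.2 moved least, between places 31 and 39.

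PSAE-1 moved most. It was at place 26 in mix 1, 38 in mix 2, 73 in mix 3, 14 in mix 4, 26 in mix 5, 53 in mix 6 and 31 in mix 7, against 21 on the reference array. RCA was at place 62 in mix 3 and between 31 and 39 on the other arrays. Both thus lost places in mix 3, which LHCB4.1 and LHCB4.2 did not, at places 5 and 38. Probe sets that span at least 16-fold over the arrays, 15 in all, can sit above a gene in some mixes, and between 0 and 2 of them did so for any of the 4 genes on any array.

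**Figure D2:**
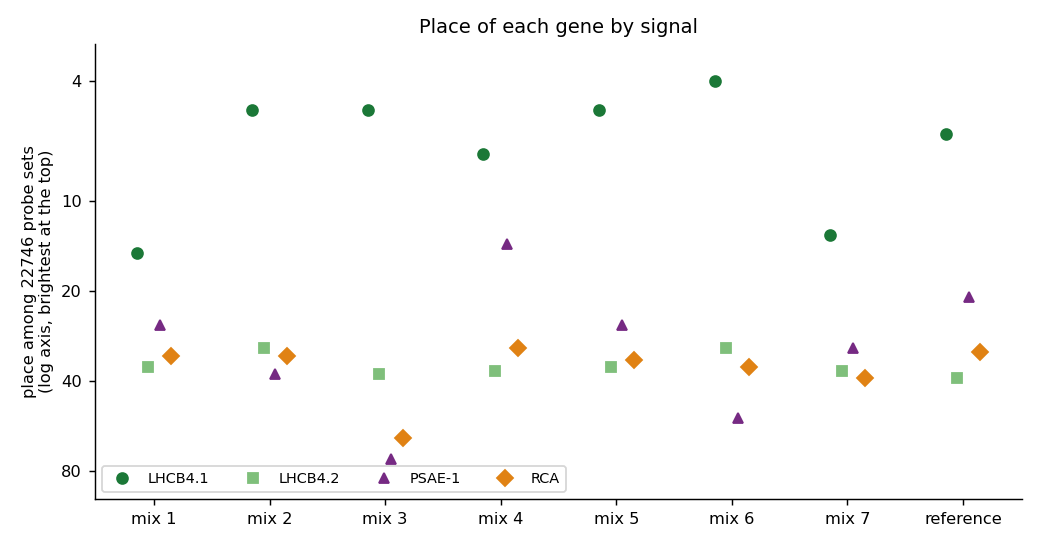
Place of each gene by signal among 22746 probe sets on each array (log axis, brightest at the top), for spike mixes 1 to 7 and the reference mix. PSAE-1 and RCA are at places 73 and 62 in mix 3, while LHCB4.1 stays at place 5 and LHCB4.2 at place 38.

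Each mix was then set against the reference array, with a difference of at least 1.2-fold counted. Of the 28 pairs of a gene and a mix 3 passed, all of them lower in the mix. PSAE-1 passed in mixes 2 and 3 and RCA in mix 3, whereas neither LHCB4 gene passed in any mix. These calls depended on the processing. After quantile normalization PSAE-1 in mix 2, at -0.15, and RCA in mix 3, at -0.23, no longer passed. LHCB4.1 in mix 3 passed with a common median, at -0.28, and LHCB4.2 in mix 3 passed, at -0.26, when set against the mean of the other 7 arrays. Against that same mean PSAE-1 in mix 4 passed as higher, at 0.27. A fold from 1 array against 1 array has no test, and all 7 comparisons share the reference array.

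PSAE-1 had a signal of 2787 in mix 2 against 3472 on the reference array, which is 1.25-fold lower, with a log2 ratio of -0.32. In mix 3, at 2416 against the same 3472, it was 1.44-fold lower, with a log2 ratio of -0.52. RCA had 2471 in mix 3 against 3236 on the reference array, 1.31-fold lower, with a log2 ratio of -0.39. These were the calls made at this threshold.

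The share of probe sets at least 1.2-fold lower than on the reference array was 10.1% in mix 2, where 1 of the 4 genes passed. It was 9.05% in mix 3, where 2 of the 4 passed. Within the 223 other brightest probe sets the shares were 12.1% and 13.9%. In the other 5 mixes 0 of the 4 genes were that much lower, beside 11.8% of all probe sets in mix 1, 9.94% in mix 4, 8.83% in mix 5, 12.3% in mix 6 and 9.48% in mix 7. None of the 4 was that much higher in any mix, with LHCB4.2 in mix 6 nearest to it at 3736 against 3120.4 on the reference array, a ratio of 1.197, beside 12.3%, 11.8%, 14.0%, 19.1%, 16.2%, 21.8% and 14.0% in mixes 1 to 7. At 1.5-fold 0 of the 28 pairs passed, beside 2.32%, 1.61%, 1.42%, 2.27%, 1.80%, 2.73% and 1.94% of all probe sets lower and 2.49%, 2.25%, 3.01%, 6.11%, 4.70%, 7.73% and 3.40% higher.

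The remaining differences were small. RCA in mix 2 was 1.15-fold lower, at 2821 against 3236 on the reference array. LHCB4.1 was 1.16-fold lower in both mixes, at 3358 in mix 2 and 3377 in mix 3 against 3911. LHCB4.2 was 1.08-fold lower in mix 2 and 1.13-fold lower in mix 3, at 2893 and 2759 against 3120.4. After quantile normalization, which at this end of the scale follows the places, both antenna genes turned in these mixes, to log2 ratios of 0.05 in mixes 2 and 3 for LHCB4.1 and of 0.07 and 0.01 for LHCB4.2. In mixes 4 and 5 all 4 genes were above the reference array as deposited, by log2 ratios of 0.09 to 0.15 in mix 4 and of 0.04 to 0.14 in mix 5. Setting all arrays to 1 common median, which shifts all ratios of mix 4 by -0.11 and of mix 6 by -0.12, turned 3 of the 4 in mix 4 and PSAE-1 in mix 5, and quantile normalization turned LHCB4.1 in mix 4 and PSAE-1 and RCA in mix 5. In mix 7 the log2 ratios ran from -0.07 for LHCB4.1 to 0.09 for LHCB4.2.

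The brightest probe sets as a group moved with mixes 2 and 3. The 223 others of the brightest 1% had a median log2 ratio to the reference array of -0.12 in mix 2 and -0.13 in mix 3, between 0.03 and 0.10 in the other mixes, and a median of 0.00 in each mix over all probe sets. Their quartiles in mix 3 were -0.20 and -0.05. The brightest probe set of an array reached 3741 for mix 2 and 3748 for mix 3, but 4606 to 5230.4 elsewhere. The labels name no batch, and the part of this shared loss in each gene's value was not tested beyond the subtraction that follows.

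With the median of these 223 subtracted, the log2 ratio of LHCB4.1 was -0.10 for mix 2 and -0.08 for mix 3, and that of LHCB4.2 was 0.01 and -0.05. PSAE-1 had -0.20 in mix 2 and -0.39 in mix 3, and RCA had -0.08 and -0.26. LHCB4.2 was thus close to the other bright probe sets in both mixes. LHCB4.1 was below their lower quartile, with -0.22 in mix 2 and -0.21 in mix 3 before subtraction, beside -0.20 in each mix. In mix 2 LHCB4.1 was also lower than RCA, and in mix 3 PSAE-1 and RCA lay well below the median. After this subtraction 1 of the 28 pairs passed 1.2-fold, PSAE-1 in mix 3, and RCA in mix 3 lay just inside the threshold.

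Counts of the 223 must give the same order within each mix, since they are taken from the same ratios. In mix 3, 1 of the 223 was as low as PSAE-1, AT5G20290 again, and 5 were as low as RCA. Those 5 were AT5G20290 and the probe sets 251814_at, 248151_at, 255886_at and 263821_s_at, which have no single named gene here. By comparison 47 were as low as LHCB4.1 and 73 as low as LHCB4.2. In mix 2 the counts were 12 for PSAE-1, 55 for RCA, 37 for LHCB4.1 and 120 for LHCB4.2.

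Mix 6 separated PSAE-1 from the other 3 genes. LHCB4.1, LHCB4.2 and RCA had log2 ratios of 0.18, 0.26 and 0.13 there, beside a median of 0.10 over the 223. PSAE-1 had -0.09, at 3269 against 3472 on the reference array, and 17 of the 223 were as low. Its log2 ratio was therefore opposite in sign to the other 3 genes, though it did not pass 1.2-fold. Against the mean of the other 7 arrays PSAE-1 had -0.003 in mix 6, beside 0.22, 0.24 and 0.17 for LHCB4.1, LHCB4.2 and RCA. After quantile normalization PSAE-1 had -0.27, past 1.2-fold, and RCA turned to -0.03 while the antenna genes kept 0.08 and 0.07.

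**Figure D3:**
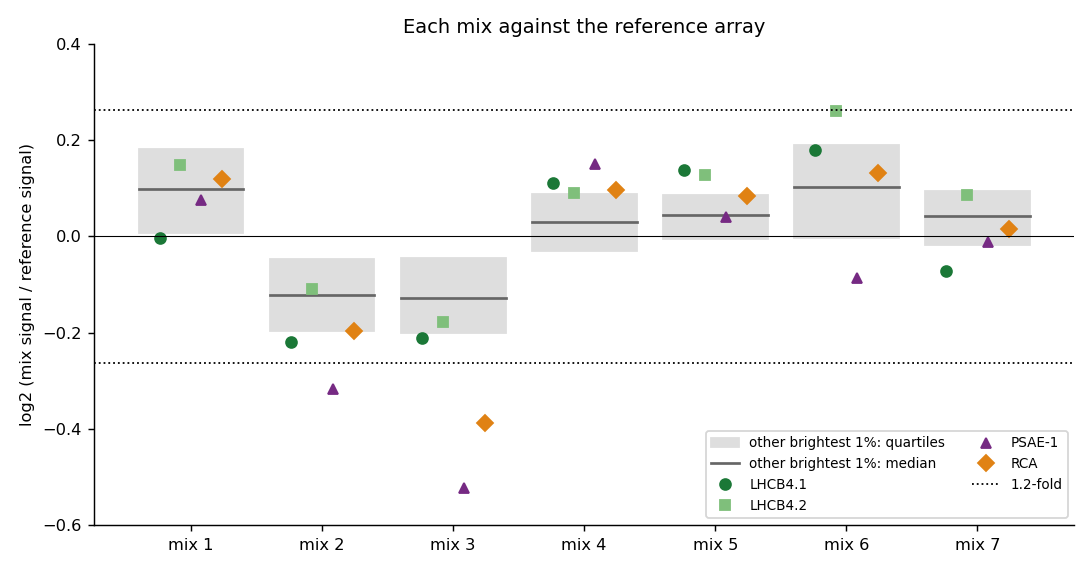
Log2 ratio of each mix to the reference array for the 4 genes (points), with the quartiles (grey boxes) and median (grey lines) of the 223 other probe sets in the brightest 1% and dotted lines at 1.2-fold. PSAE-1 in mixes 2 and 3 and RCA in mix 3 lie under the lower dotted line, and PSAE-1 alone of the 4 is below 0 in mix 6; after quantile normalization RCA is too, and the LHCB4 genes turn above 0 in mixes 2 and 3.

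Control probe sets for RNA quality did not set mixes 2 and 3 apart together. The ratio of 3' to 5' signal for actin was 3.19 in mix 2 and 1.63 in mix 3, against 2.39 to 4.31 on the other arrays. For GAPDH it was 1.33 and 1.54 in these mixes, against 1.201 to 1.505 on the others, and for ubiquitin 2.47 and 2.87, against 2.46 to 3.52. Mix 3 thus had the lowest actin and the highest GAPDH ratio of the 8 arrays, and the part of RNA quality in the low signals there was not tested.

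The balance within the LHCB4 pair was followed as the ratio of LHCB4.1 to LHCB4.2 signal on the same array. Its level cannot be read as a ratio of transcripts, because the probe sets may bind with different strength, and probe sequences that could show shared binding were not used here. The ratio was 1.13 in mix 1, 1.16 in mix 2, 1.22 in mix 3, 1.27 in mix 4, 1.26 in mix 5, 1.18 in mix 6 and 1.12 in mix 7, against 1.25 on the reference array. Mixes 3, 4 and 5 and the reference array formed the upper end, and mixes 1 and 7 the lower end.

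From the lowest to the highest array this ratio changed by a factor of 1.13, a log2 range of 0.18. Its SD was 0.07 on the log2 scale (n = 8 arrays). Among all 24753 pairs of the 223 other brightest probe sets the median SD of such a ratio was 0.11 and the median range 0.33, and 13.9% of the pairs had a smaller SD. LHCB4.2 against RCA was about as steady, with an SD of 0.07 and 14.0% of pairs below it, so the steadiness was not particular to the antenna pair. Scaling the arrays does not enter a ratio taken within an array, and the balance did not follow the low signals of mixes 2 and 3, where it was 1.16 and 1.22.

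The ratios that involve PSAE-1 and an antenna gene varied more. The log2 ratio of LHCB4.2 to PSAE-1 had an SD of 0.15 and ran from -0.21 in mix 4 to 0.19 in mix 6, with the same 0.19 in mix 3. The log2 ratio of LHCB4.1 to PSAE-1 had an SD of 0.15 and was highest in mix 3, at 0.48, and in mix 6, at 0.44. Of the pairs of other bright probe sets 77.9% had a smaller SD than LHCB4.2 to PSAE-1, and 76.9% a smaller one than LHCB4.1 to PSAE-1. LHCB4.1 to RCA had an SD of 0.09, and PSAE-1 to RCA also 0.09, with its lowest value, -0.12, in mix 6.

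**Figure D4:**
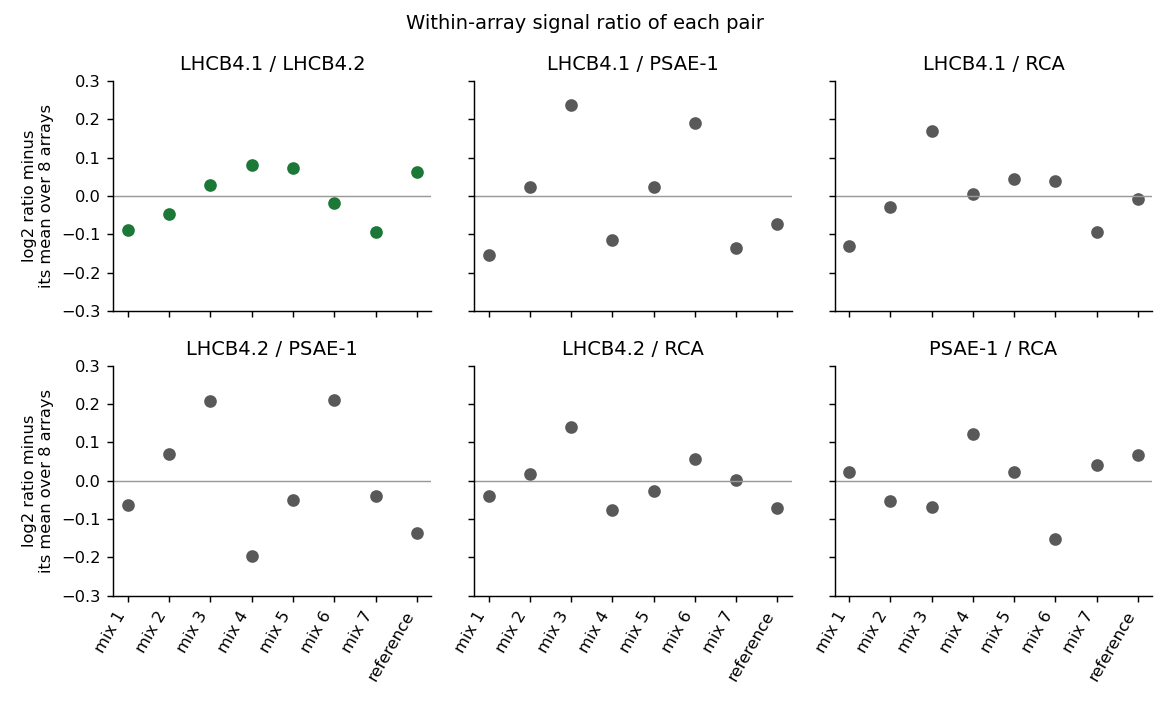
Log2 signal ratio within each array for the 6 pairs of genes, less its own mean over 8 arrays, for spike mixes 1 to 7 and the reference mix. The LHCB4 pair in green spans 0.18, while both ratios of an antenna gene to PSAE-1 are highest in mixes 3 and 6.

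Whether the genes moved together over the 8 arrays was asked of all 6 pairs, with two-sided exact permutation tests over 40320 pairings and Benjamini-Hochberg adjustment over the 6. Nothing in the labels says that the arrays came from separate plants, so shared variation between arrays may be technical. The p-values ask whether a pair varied together at all, not whether it did so more than other bright probe sets. LHCB4.2 and RCA had Pearson r = 0.93 (exact p = 7.44e-05, adjusted 0.000446) and Spearman rho = 0.98 (exact p = 0.000397, adjusted 0.00238). PSAE-1 and RCA had r = 0.93 (exact p = 0.00719, adjusted 0.0108) but rho = 0.60 (exact p = 0.132, adjusted 0.198). The antenna pair had r = 0.88 (exact p = 0.00494, adjusted 0.00987) and rho = 0.79 (exact p = 0.0279, adjusted 0.0735).

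LHCB4.1 and RCA had r = 0.87 (exact p = 0.00342, adjusted 0.00987) and rho = 0.76 (exact p = 0.0368, adjusted 0.0735). PSAE-1 had r = 0.76 with LHCB4.1 (exact p = 0.0276, adjusted 0.0314) and r = 0.76 with LHCB4.2 (exact p = 0.0314, adjusted 0.0314). The rank correlations of these 2 pairs were 0.50 (exact p = 0.216, adjusted 0.216) and 0.55 (exact p = 0.171, adjusted 0.205). By Pearson r all 6 pairs passed 0.05 after adjustment, and by rank only LHCB4.2 with RCA did. After quantile normalization 0 of the 6 passed by Pearson r, and the lowest r was -0.51.

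Mixes 2 and 3 were the 2 arrays farthest from the median in every pair, and the relations of PSAE-1 rested on them. Without them, over 6 arrays, r was 0.84 for LHCB4.2 and RCA (exact p = 0.0111, adjusted 0.0667), 0.68 for LHCB4.1 and RCA and 0.61 for the antenna pair (exact p = 0.160 and 0.197, adjusted 0.394 for both). It was 0.12 for PSAE-1 and RCA, -0.07 for PSAE-1 and LHCB4.1 and -0.38 for PSAE-1 and LHCB4.2 (exact p = 0.810, 0.899 and 0.461, adjusted 0.899, 0.899 and 0.692). None of the 6 passed 0.05 after adjustment, and LHCB4.2 with RCA alone had an unadjusted exact p under 0.05, with rho = 0.94 (exact p = 0.0167, adjusted 0.10). With the median of the brightest probe sets subtracted on each of the 8 arrays, LHCB4.2 and RCA had r = 0.83 and PSAE-1 and RCA r = 0.89, each with an adjusted exact p of 0.0205, and the other 4 pairs did not pass. The median r of a gene with the 223 other brightest probe sets was 0.67 for LHCB4.1, 0.75 for LHCB4.2, 0.69 for PSAE-1 and 0.76 for RCA. Other bright probe sets thus typically had a high r with each gene. The r of 0.76 between PSAE-1 and each antenna gene over 8 arrays was not far above the medians of those genes.

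The genes with the most similar profiles were named by Pearson r over the 8 arrays, among 6017 other probe sets with 1 gene and a mean of at least 42.5, the median of the table. The arrays share their normalization, so r is given as a description. For LHCB4.1 they were AT5G19510 (r = 0.98), AT3G22240 (0.97) and AT5G19760 (0.97). For LHCB4.2 they were AT4G01810 (r = 0.97), AT2G43030 (0.97) and atpE (0.96), the chloroplast gene of the epsilon subunit of ATP synthase. For PSAE-1 they were AT1G03280 (r = 0.97), PRK (0.97) and AT1G13930 (0.95), where PRK encodes phosphoribulokinase, which makes the CO2 acceptor of the Calvin cycle.

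For RCA the closest were atpE (r = 0.96), ATPC1 (0.96), the nuclear gene of the gamma subunit of the chloroplast ATP synthase, and AT5G52840 (0.96). Between 11 and 31 of the 6017 had r of at least 0.9 with a given gene, 31 for LHCB4.1, 26 for LHCB4.2, 11 for PSAE-1 and 19 for RCA. PRK had 2530 in mix 2 and 2385 in mix 3 against 2753 on the reference array, with log2 ratios of -0.12 and -0.21. ATPC1 had 2567 and 2420.3 against 2966, with -0.21 and -0.29. Both genes were picked by likeness over the same arrays. Their low signals in mixes 2 and 3 therefore follow from that choice and are no separate result.

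Other genes of photosynthesis were taken from 9 lists of nuclear and chloroplast genes matched by symbol. Besides the 4 genes, 34 had a probe set with 1 gene, of which 21 are nuclear genes of the complexes and pathways, 12 are chloroplast-encoded and 1 is a regulator. Of these 34, 4 were at least 1.2-fold lower than on the reference array in mix 2 and 7 in mix 3, while 0 and 1 were that much higher. Over all probe sets the shares were 10.1% and 9.05% lower and 11.8% and 14.0% higher, so the 4 of 34 in mix 2 lay near the background. The 34 include HEMA3, which was under the floor on every array. The 4 in mix 2 were PSAN, PSBY, PSB27 and psaB, listed after their values were seen. In the other 5 mixes between 1 and 4 were lower and between 0 and 6 higher, with the 6 in mix 1. Over all probe sets the shares there were 8.83% to 12.3% lower and 12.3% to 21.8% higher. The median log2 ratio of the 34 was -0.10 in mix 2 and -0.14 in mix 3, and after quantile normalization 0.01 and -0.04. Over all 7 mixes these genes gave 34 calls, with a gene counted once per mix against the same reference array. Of these calls 22 were lower, 36 of 44 after scaling to a common median and 12 of 20 after quantile normalization. As deposited, more of all probe sets were higher than lower in each of the 7 mixes. Those shares were not counted under the other scalings.

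Of the nuclear genes 10 belong to the brightest 1%, and all 10 were below the reference array in mixes 2 and 3 as deposited and with a common median, but 5 and 6 of them after quantile normalization. Their median log2 ratios were -0.16 and -0.20, with 3 and 4 of them at least 1.2-fold lower, and 0 in either mix after quantile normalization. The 223 brightest probe sets, which include these 10, had medians of -0.12 and -0.13 as deposited. Their upper quartile was -0.05 in each of these mixes, so most of the 223 were below the reference array as well.

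In photosystem I, 2 of 13 listed nuclear genes were measured. PSAN, a subunit on the lumenal side, had 2244 in mix 2, against 2784 on the reference array, a log2 ratio of -0.31, and -0.32 in mix 3. Unlike PSAE-1 it was above the reference array in mix 6, with 0.24. Of the 10 bright nuclear genes 3 were below the reference array in mix 6, with a lowest log2 ratio of -0.07. In photosystem II 3 were measured, of which 2 passed in mix 2 and 1 in mix 3. PSBY, a small subunit, passed in both mixes with -0.29. PSB27, an assembly factor named after its values were seen, had -0.29 in mix 2 and -0.04 in mix 3, and PSBW, another small subunit, had -0.11 and -0.05.

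Of the light-harvesting list only the LHCB4 genes were measured, 3 of 27 names. LHCB4.3, the remaining copy, was named after its values were seen; it had 73.9 to 88.6 and places between 7130 and 8255, and was highest on the reference array, by less than 1.2-fold over every mix. In the Calvin cycle list RCA and PRK are described above, and 1 of the other 2 genes passed in mix 3. It was TPI (AT3G55440), the cytosolic triose phosphate isomerase, which entered by its symbol and was named after its value was seen, with a log2 ratio of -0.27.

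Of nuclear electron transport and ATP synthase genes 3 were measured. ATPC1 passed as lower in mix 3. PGRL1B, a gene of cyclic electron flow, was lowest on the reference array, at 196.6, so that all 7 mixes were above it, with log2 ratios from 0.10 to 0.45. ATPC2, the other gamma subunit gene, was also higher in all 7 as deposited, with 0.40 in mixes 1 and 6 and a signal of at most 48.0, but turned in mixes 3 and 4 under either other scaling. Against the mean of the other 7 arrays both genes were below 0 in mixes 2 and 7, and 1 of the 2 was in each of mixes 3, 4 and 5.

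Of the chlorophyll synthesis list 9 genes had a probe set, but HEMA3 lay under the floor on all 8 arrays and could not pass. Of the 9, 7 were below the reference array in mix 2 and 8 in mix 3, with medians of -0.07 and -0.10, and 0 of them passed as lower in mix 2 and 1 in mix 3. It was CHLI2, a magnesium chelatase subunit named after its value was seen, with -0.27. PORB, a protochlorophyllide oxidoreductase, had log2 ratios of -0.04 and -0.03 in mixes 2 and 3, and CHLM, a methyltransferase of the magnesium branch, had -0.07 and -0.04. GSA1, an aminotransferase early in the pathway, had 0.14 in mix 2 and -0.36, -0.40 and -0.32 in mixes 4, 5 and 6. HPR, the hydroxypyruvate reductase of photorespiration, had -0.10 and -0.14.

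The direction of the chloroplast-encoded partners of the 4 genes in mixes 2 and 3 depended on the scaling. Of 12 measured, 7 were below the reference array in each mix as deposited, 9 and 11 with a common median and 3 and 4 after quantile normalization. As deposited 1 passed 1.2-fold in each, with medians of -0.04 and -0.09 that turned to 0.07 and 0.06 after quantile normalization. That gene was psaB, a core protein of photosystem I, with log2 ratios of -0.30 and -0.28. Its partner psaA had 0.07 and 0.03, and rbcL, the large subunit of Rubisco on which RCA acts, had 0.08 and -0.14. Both psaA and rbcL were named outside the rule for named genes given below. The ATP synthase gene atpB had -0.18 and -0.16, and psbB, the CP47 protein of photosystem II, was lowest in mix 1, with -0.76.

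Of 21 listed regulators only HYH was measured, a light-response transcription factor. It had a signal of 19.9 in mix 3 against 28.5 on the reference array, with a log2 ratio of -0.52 near the dim end of the scale.

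**Figure D5:**
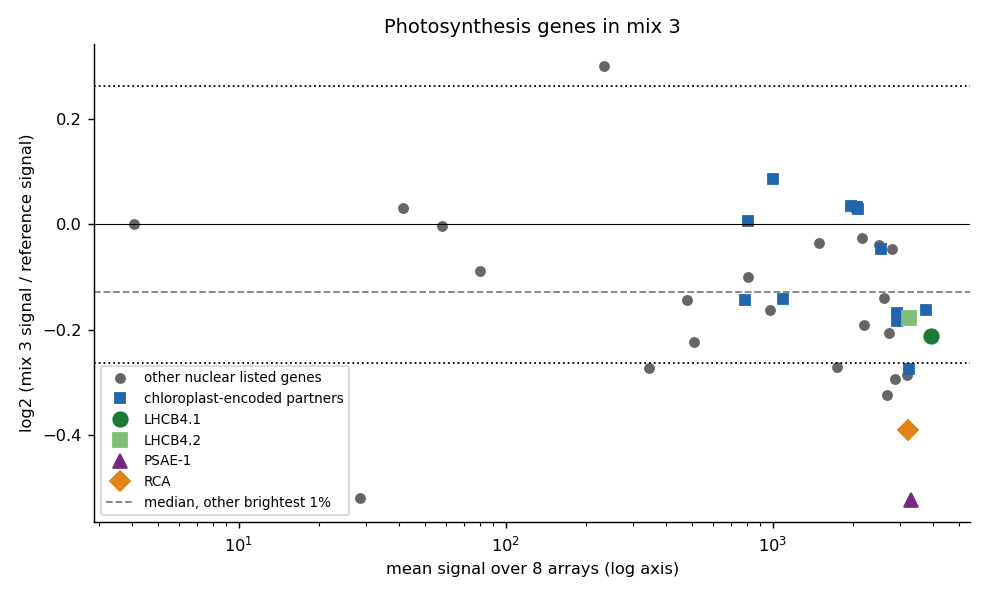
Log2 ratio of mix 3 to the reference array against mean signal over 8 arrays (log axis), for the 4 genes, the other listed nuclear genes and the chloroplast-encoded partners, with dotted lines at 1.2-fold and a dashed line at the median of the other brightest probe sets, -0.13. PSAE-1 at -0.52 and RCA at -0.39 lie lowest among the bright genes drawn here. The LHCB4 genes, at -0.21 and -0.18, lie nearer to the dashed line and turn to 0.05 and 0.01 after quantile normalization.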

How the data were processed

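The deposited table holds 1 linear intensity per probe set and array, made by the authors with MAS5 per the submitters' processing notes; the version and scanner are not given in the sources used here. The values were used as deposited. Gene names came from the annotation of the platform and from a TAIR10.1 table: 13513 had 1 gene, 503 several and 8794 none here, and 13436 were matched. THO1, which entered the photorespiration list only through the synonym HPR1, was removed.

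Each mix was set against the reference array on the log2 scale with values below 12.9 set to that floor, and calls were made at 1.2-fold. The brightest 1% were the 227 probe sets with the highest mean signal. Named genes were the 4 genes, the 3 closest profiles to each, and in each list the 2 brightest and the 1 with the largest SD. The members, lists and thresholds were chosen with earlier results of these data known. The calls, correlations and permutation p-values were tried on simulated data with independent noise. That simulation lacked the shift that bright probe sets share over arrays, so it does not show how the p-values behave under such a shift. The alternatives were other scalings, comparators, floors, thresholds and left-out arrays; those without mixes 2 and 3 or the wide-range probe sets, the calls without the reference array and some with brightness subtracted were chosen after seeing the data. The software was matplotlib 3.10.9, scipy 1.17.1, pandas 2.3.3 and numpy 2.4.6 under Python 3.11.15.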

Additional observations from a re-analysis of the deposited data

Results flagged for a closer look

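Among 48 measures with 8 array values each, 3 held a single array that stood well away from the rest, and chance gives about 1 in 20. RCA was at place 62 in mix 3 and between 31 and 39 on the other arrays. PSB27, a gene for assembly of photosystem II, had a signal of 2036 in mix 2 and between 2423 and 2758 on the others. HEMA2, a glutamyl-tRNA reductase gene of chlorophyll synthesis, had 65.3 in mix 6 and between 54.2 and 58.5 on the others.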

How the results depend on the processing

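The 3 calls among the 28 pairs of a gene and a mix became 5 against the mean of the other 7 arrays, 4 of them lower, 1 with the median of the brightest probe sets subtracted, 0 at 1.5-fold and 0 without mixes 2 and 3. Leaving out single arrays gave 1 to 4 calls, with 1 without mix 3. Quantile normalization kept PSAE-1 in mix 3 and added PSAE-1 in mix 6, and a common median added LHCB4.1 in mix 3. The median SD of the 4 genes was 0.074 after quantile normalization, 0.11 with brightness subtracted, 0.084 without mixes 2 and 3 and between 0.13 and 0.18 without single arrays, lowest without mix 3. The range of the LHCB4 balance was 0.17 to 0.18 in every alternative. The last place of any of the 4 genes was 73; it was 21 among probe sets with 1 gene, and between 53 and 73 without single arrays, 53 without mix 3. The 6 correlated pairs became 0 after quantile normalization, where the lowest r was -0.51, 2 with brightness subtracted, 0 without mixes 2 and 3 and 3 to 6 without single arrays, 3 without mix 2 or without mix 3. The 34 calls among other photosynthesis genes became 20 after quantile normalization, 21 with brightness subtracted, 22 without mixes 2 and 3 and between 24 and 33 without single arrays. Of 112 values of single ratios under 4 alternatives, 106 moved by less than the SD over the arrays and 0 of the called ones changed sign. Subtracting brightness or normalizing quantiles removes by construction what the brightest probe sets share; the cause of the other shifts was not tested. No paired analysis was possible because the groups share 1 replicate number and have 1 array each.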
